A study of Mus musculus with 2 samples.

Results

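The genes described here are the hairpins of a pair of microRNA (miRNA) clusters, mir-17-92 and mir-106b-25, in mouse heart. They are Mir17, Mir18, Mir19a, Mir20a, Mir19b-1 and Mir92-1 of mir-17-92 and Mir106b, Mir93 and Mir25 of mir-106b-25, 9 of the 2202 miRNA genes counted. They were chosen by cluster membership and gene symbol, not by their read counts, but with earlier results of these data known. MicroRNA-seq, the sequencing of size-selected short RNAs, was run on total RNA from the heart tissue of male B6CASTF1/J mice, and 2 libraries make up the 1 group of the study. The mice were 36 days old by the age label, whereas a free-text label writes that number with months. No treatment, other tissue or other age was labelled, and no sort of cells from the heart tissue. The libraries are numbered as biological replicates from separately numbered males that carry 1 donor record, so the SDs and n = 2 below describe these samples.

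A miRNA is cut from a hairpin precursor, and a strand from 1 arm of the hairpin pairs with target messenger RNAs mainly through its seed, bases 2 to 8. The hairpins of mir-17-92 come from 1 primary transcript, Mir17hg, which is known to be driven by Myc and E2F factors in dividing cells, and mir-106b-25 comes from within Mcm7, a gene of the DNA replication helicase. Both clusters are known for promoting cell division and survival through targets such as Bcl2l11 and Cdkn1a, and in the heart mir-17-92 is known for its part in cardiomyocyte proliferation.

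The 6 mir-17-92 hairpins span 836 nucleotides (nt) of chromosome 14, positions 115043671 to 115044506 of mm10, plus strand, with gaps of 35 to 96 nt between them. The annotation places all of them in an exon of Mir17hg, a long non-coding RNA gene, with 1 transcript spanning them. The 3 mir-106b-25 hairpins span 498 nt of chromosome 5, positions 138165321 to 138165818, minus strand, and lie in an intron of 2 Mcm7 transcripts. Mir93 and Mir25 also overlap an exon of 1 of the 3 Mcm7 transcripts that span them, and Mir106b overlaps none. No annotated gene lies on the opposite strand of any of the 9 hairpins, and none of the 9 had an antisense read in either library.

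The guide arms, the strands known to act for each hairpin, are shown because their seeds put the 9 genes into 4 groups. They are written 5′ to 3′ from RefSeq (GRCm38.p6), which held all 9, with the seed in capitals. The miR-17, miR-20a, miR-106b and miR-93 arms share 1 seed across both clusters.
miR-17-5p: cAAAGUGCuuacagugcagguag
miR-20a-5p: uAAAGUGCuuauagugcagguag
miR-106b-5p: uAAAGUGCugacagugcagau
miR-93-5p: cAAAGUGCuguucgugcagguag
miR-18a-5p: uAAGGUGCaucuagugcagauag
miR-19a-3p: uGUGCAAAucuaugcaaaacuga
miR-19b-3p: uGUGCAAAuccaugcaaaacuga
miR-92a-3p: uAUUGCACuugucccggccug
miR-25-3p: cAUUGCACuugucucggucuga

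Counted from the 5′ end with no gaps, miR-20a-5p differs from miR-17-5p by 2 substitutions, C1U and C12U, and miR-93-5p differs from it by 4, U10G, A11U, C12U and A13C. Over its 21 nt, miR-106b-5p differs from miR-17-5p by 3, C1U, U10G and G20A. The miR-19a-3p and miR-19b-3p arms differ by 1 substitution, U11C, and miR-25-3p differs from miR-92a-3p by 3 over 21 nt, U1C, C14U and C18U. None of these changes falls within a seed.

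Sense reads assigned to miRNA genes numbered 1999362 in library 1 and 1862526 in library 2, or 36.5% and 38.1% of all reads. Levels are counts per 1000000 of these assigned sense reads (CPM), and each sums both arms of a hairpin, which the tables do not separate. A miRNA read usually covers a whole mature strand whatever the length of the hairpin, so levels of different genes are set side by side without dividing by length; dividing by hairpin length left the order of the 9 genes as it was. Reads with more than 1 mapping place, 41.5% and 42.9% of all reads, were counted for no gene. Intervals are exact 95% intervals that cover counting error only and treat each read as an independent draw. PCR reads are not independent molecules, so the intervals can be too narrow. In bulk tissue, fewer cells of a type and less RNA per cell cannot be told apart.

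The heart libraries held reads of both clusters, and mir-106b-25 gave more counted reads than mir-17-92. Of the mir-17-92 hairpins, 2 (Mir19b-1 and Mir92-1) share their guide arm with a hairpin elsewhere, so their reads can go uncounted, and no mir-106b-25 hairpin does. The 9 genes took 1.47% of assigned reads in library 1 (interval 1.46 to 1.49) and 1.02% in library 2 (1.00 to 1.03). The mir-106b-25 cluster took 0.903% in library 1 and 0.569% in library 2, or 7361 ± 2365 CPM (SD, n = 2). The mir-17-92 cluster took 0.569% in library 1 and 0.448% in library 2, or 5088 ± 854 CPM (SD, n = 2). Within each library, mir-106b-25 exceeded mir-17-92, by 1.59-fold in library 1 (1.55 to 1.62) and 1.27-fold in library 2 (1.23 to 1.31), so both intervals lie above 1 and do not overlap each other. The mean log2 ratio was 0.50 ± 0.23 (SD, n = 2), and 1.13 with Mir19b-1 and Mir92-1 left out. Leaving them out takes reads from mir-17-92 alone, so the ratio had to rise. The value of 1.13 does not correct for uncounted reads. The difference between the mean CPM of the clusters was smaller than the SD of mir-106b-25 between libraries. Mir93 alone had 14419 reads in library 1, more than the 11381 of all mir-17-92 hairpins, and 8003 in library 2, fewer than their 8352.

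**Figure D1:**
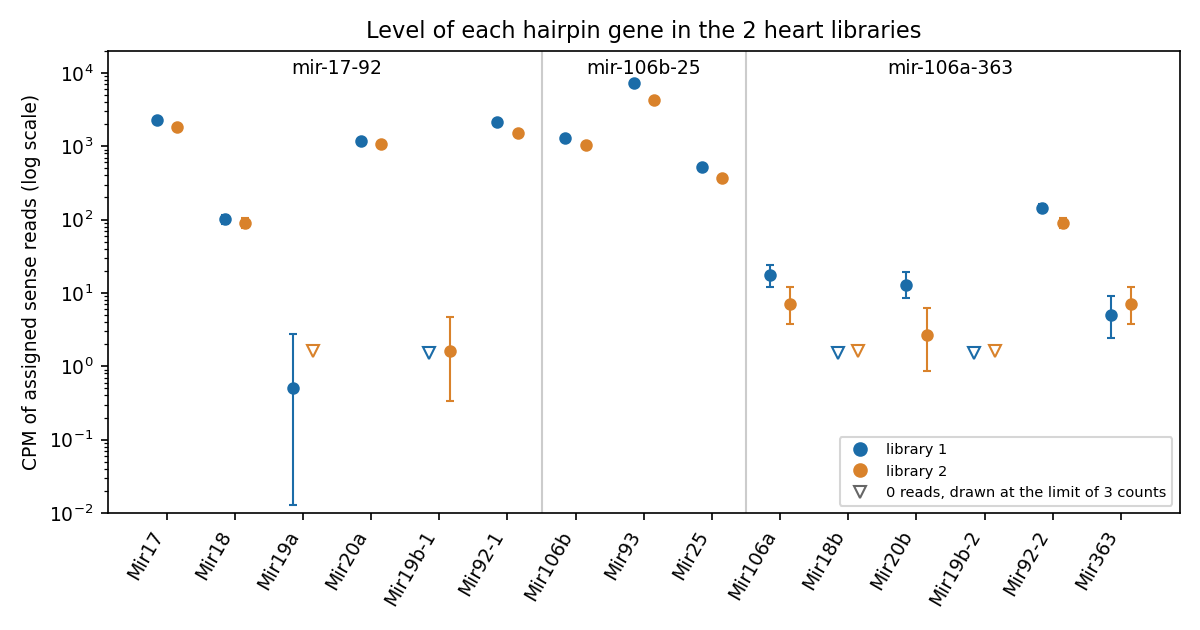
Level of each hairpin gene, in CPM on a log scale, in library 1 (blue) and library 2 (orange), with exact Poisson 95% intervals and open triangles at the limit of 3 counts where a gene had 0 reads. Mir93 is highest in both libraries at 7212 and 4297 CPM, while Mir19a and Mir19b-1 sit at or below the limit of 3 counts in a cluster whose other hairpins reach 2298 CPM.

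In mir-17-92, the leading gene by counted reads was Mir17, whose seed Mir20a, Mir106b and Mir93 share. Its rank over Mir92-1 holds for counted reads only, since the miR-92a arm also lies in Mir92-2 and uncounted reads could turn it. Mir17 stood at 2298 CPM in library 1 (interval 2232 to 2365) and 1833 CPM in library 2 (1772 to 1896), or 2065 ± 329 (SD, n = 2). Mir92-1, whose miR-92a product is known for restraining vessel growth in endothelium, stood at 2108 CPM in library 1 (2045 to 2172) and 1497 in library 2 (1442 to 1554), or 1803 ± 432. Mir17 exceeded Mir92-1 in both libraries, by 1.09-fold (1.05 to 1.14) and 1.22-fold (1.16 to 1.29), with both intervals above 1.

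Mir20a, which carries the Mir17 seed, stood at 1185 CPM in library 1 (1138 to 1234) and 1061 in library 2 (1015 to 1109), or 1123 ± 87.6. It was below Mir17 in both libraries, with Mir17 at 1.94 times Mir20a in library 1 (1.84 to 2.04) and 1.73 times in library 2 (1.63 to 1.83). Mir18, alone in its seed group among the 9 genes, was lower, at 101 CPM in library 1 (87.6 to 116) and 90.7 in library 2 (77.6 to 105), or 95.9 ± 7.28. Mir17 exceeded it 22.7-fold (19.8 to 26.3) and 20.2-fold (17.3 to 23.7), with intervals that overlap.

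The miR-19 hairpins were nearly without counted reads. Mir19a had 1 read in library 1 and 0 in library 2, where the exact interval reaches 1.98 CPM and 3 counts are 1.61 CPM. Mir19b-1 had 3 reads in library 2 and 0 in library 1, where the exact interval reaches 1.85 CPM and 3 counts are 1.5 CPM. They lie between well-covered hairpins, Mir19a 53 nt after Mir18 and 75 nt before Mir20a, and Mir19b-1 41 nt after Mir20a and 35 nt before Mir92-1. Counted reads therefore did not follow position along the shared transcript, as the plot along the clusters shows. For Mir19b-1 and Mir92-1, reads of the guide arm can go uncounted, so this holds for counted reads only.

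**Figure D2:**
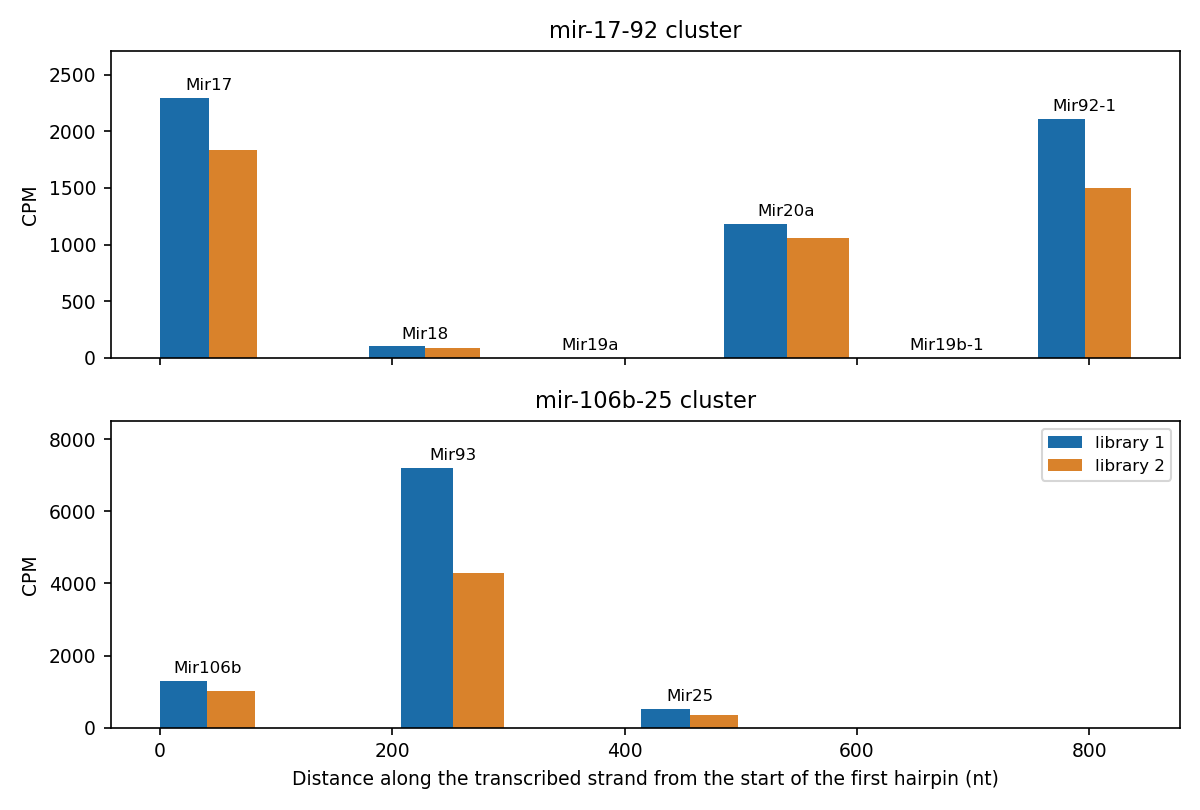
Level in CPM (bars, library 1 blue, library 2 orange) against the distance along the transcribed strand from the start of the first hairpin, in nt, each bar pair as wide as its hairpin. In mir-17-92 the hairpins at each end, Mir17 and Mir92-1, are the highest, and Mir19a and Mir19b-1 have no visible bar; in mir-106b-25 the middle hairpin, Mir93, is the highest.

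In mir-106b-25, Mir93 held most of the reads. It stood at 7212 CPM in library 1 (interval 7095 to 7330) and 4297 in library 2 (4203 to 4392), or 5754 ± 2061 (SD, n = 2), the 26th highest mean of the 652 genes with a count. Mir106b, which shares the Mir17 seed as Mir93 does, stood at 1295 CPM in library 1 (1246 to 1346) and 1025 in library 2 (979 to 1072), or 1160 ± 191. Mir25, which carries the miR-92a seed and is known for acting on calcium handling in heart muscle, stood at 527 CPM (495 to 559) and 367 CPM (340 to 396), or 447 ± 113. Mir93 exceeded Mir106b 5.57-fold in library 1 (5.34 to 5.81) and 4.19-fold in library 2 (3.99 to 4.41), and it exceeded Mir25 13.7-fold (12.9 to 14.6) and 11.7-fold (10.8 to 12.7). The RefSeq hairpins (GRCm38.p6) of the leading gene of each cluster are shown with the guide arm in capitals, to show where the arm with the shared seed sits.
Mir93 (chr5:138165523-138165610, minus strand): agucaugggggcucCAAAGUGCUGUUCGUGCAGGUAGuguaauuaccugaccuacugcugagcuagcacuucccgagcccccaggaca
Mir17 (chr14:115043671-115043754, plus strand): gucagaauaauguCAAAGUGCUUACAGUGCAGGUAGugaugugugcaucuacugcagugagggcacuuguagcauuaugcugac

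By mean level the order of the 9 genes was Mir93, Mir17, Mir92-1, Mir106b, Mir20a, Mir25, Mir18, Mir19b-1 and Mir19a. Mir106b and Mir20a did not differ beyond their spread and changed places between libraries, with Mir106b at 1.09 times Mir20a in library 1 (1.03 to 1.16) and 0.966 times in library 2 (0.906 to 1.03). The mean CPM of Mir17 and Mir92-1 differed by less than the SD of either, although Mir17 was the higher in each library, with a mean log2 ratio of 0.21 ± 0.12 (SD, n = 2). The miR-19 hairpins, at 0 to 3 reads, could not be ordered. The genes closest to Mir93 in log2 level over both libraries were Mir99b at 6078 ± 2312 CPM, Mir30e at 6629 ± 2388 and Mir322 at 5356 ± 819, with distances of 0.11, 0.29 and 0.32. Those closest to Mir17 were Mir28a at 2169 ± 266 CPM, Mir98 at 1889 ± 305 and Mir221 at 1881 ± 164, with distances of 0.12, 0.18 and 0.21. With 2 libraries this closeness is of level and of 1 ratio only.

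The make-up of each cluster in counted reads does not depend on how a library is scaled. In mir-17-92 it can depend on reads of the Mir92-1 and Mir19b-1 guide arms that went uncounted, which the intervals do not cover. Mir17 made up 40.4% of mir-17-92 reads in library 1 (interval 39.5 to 41.3) and 40.9% in library 2 (39.8 to 41.9), intervals that overlap. The share of Mir92-1 was 37.0% in library 1 (36.1 to 37.9) and 33.4% in library 2 (32.4 to 34.4), and that of Mir20a 20.8% (20.1 to 21.6) and 23.7% (22.8 to 24.6). Neither pair of intervals overlaps. Mir18 took 1.77% and 2.02%, with overlapping intervals.

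In mir-106b-25, Mir93 took 79.8% of the reads in library 1 (79.2 to 80.4) and 75.5% in library 2 (74.7 to 76.3). Mir106b took 14.3% (13.8 to 14.9) and 18.02% (17.3 to 18.8), and Mir25 took 5.83% (5.49 to 6.18) and 6.46% (5.99 to 6.94). Only the Mir25 intervals overlap. Mir93 and Mir92-1 thus held a larger part of the counted reads of their cluster in library 1, and Mir106b and Mir20a in library 2.

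**Figure D3:**
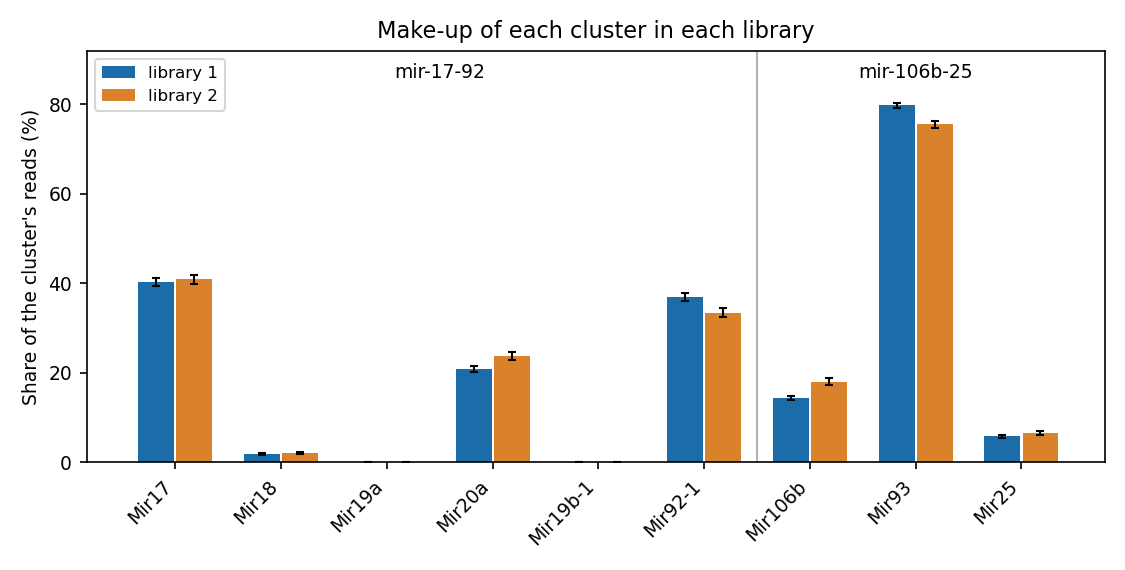
Share of each cluster's counted reads taken by each member, in percent, in library 1 (blue) and library 2 (orange), with exact Clopper-Pearson 95% intervals. Mir93 takes 79.8% and 75.5% of mir-106b-25, and Mir17 takes 40.4% and 40.9% of mir-17-92, in libraries 1 and 2.

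Copies of a sequence bear on what could be counted for Mir19b-1 and Mir92-1, because a read with several mapping places was not counted. Each has a paralog in the mir-106a-363 cluster of chromosome X with the same whole guide arm. Their RefSeq hairpins (GRCm38.p6) are shown with the longest stretch shared by each pair in capitals.
Mir19b-1 (chr14:115044305-115044391, plus strand): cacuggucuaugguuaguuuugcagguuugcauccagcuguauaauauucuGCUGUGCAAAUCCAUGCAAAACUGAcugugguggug
Mir19b-2 (chrX:52741983-52742066, minus strand): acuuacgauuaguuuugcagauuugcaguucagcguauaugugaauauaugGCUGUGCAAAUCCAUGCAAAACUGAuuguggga
Mir92-1 (chr14:115044427-115044506, plus strand): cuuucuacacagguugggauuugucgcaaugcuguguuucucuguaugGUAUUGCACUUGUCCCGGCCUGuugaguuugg
Mir92-2 (chrX:52741838-52741928, minus strand): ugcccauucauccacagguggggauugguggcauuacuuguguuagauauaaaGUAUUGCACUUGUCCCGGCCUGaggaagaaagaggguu

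The Mir19b pair shares 25 nt, which reach beyond the 23 nt guide arm, and the Mir92 pair shares 22 nt, of which 21 are the guide arm. Mir19b-1 had 0 and 3 reads and Mir19b-2 had 0 in both libraries. Mir92-1 had 4214 and 2789 reads and Mir92-2 had 286 and 167, so Mir92-1 exceeded its copy 14.7-fold in library 1 (13.1 to 16.7) and 16.7-fold in library 2 (14.3 to 19.6), with overlapping intervals. How many reads of these 4 hairpins were left out for having several mapping places was not tested.

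Mir19a had 1 and 0 reads. No other annotated hairpin holds its guide arm, and the longest stretch it shares with any of them is 13 nt, with Mir19b-2. Its guide arm has the lowest GC content of the 9 at 34.8%, against 39.1% for miR-19b-3p and miR-20a-5p, 43.5% for miR-18a-5p and up to 57.1% for miR-92a-3p. The part of shared sequence and of GC content in the low count was not tested.

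Grouped by seed, nearly all counted reads of hairpins with the miR-17 seed on an arm came from the 9 genes. These counts include reads of the other arm, which carries another seed. A set of 7 hairpins carries this seed on an arm, and together they took 1.20% of assigned reads in library 1 (interval 1.19 to 1.22) and 0.823% in library 2 (0.810 to 0.836). Mir93, Mir17, Mir106b and Mir20a gave 99.7% and 99.9% of these reads. The rest came from Mir106a at 12.2 ± 7.44 CPM and Mir20b at 7.84 ± 7.30 CPM, and Mir6383, named only for its seed, had 0 reads.

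The seed of miR-25 and miR-92a was carried by 7 hairpins with 0.287% of assigned reads in library 1 (0.279 to 0.294) and 0.205% in library 2 (0.198 to 0.211). Mir92-1 and Mir25 gave 91.9% and 91.1% of these reads. Reads of the miR-92a arm, which lies in both Mir92-1 and Mir92-2, can go uncounted, so these shares are of counted reads only. Outside the 9 genes it was found on Mir92-2 at 116 ± 37.7 CPM, Mir32 at 51.2 ± 4.03, Mir92b at 33.7 ± 3.16 and Mir363 at 5.99 ± 1.40, and on Mir367 with 0 and 1 reads. Of the 2 hairpins with the miR-18 seed Mir18 alone had reads, and the 3 hairpins with the miR-19 seed had 1 and 3 counted reads in all. Reads of the miR-19b arm, which lies in both Mir19b-1 and Mir19b-2, can go uncounted too.

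**Figure D4:**
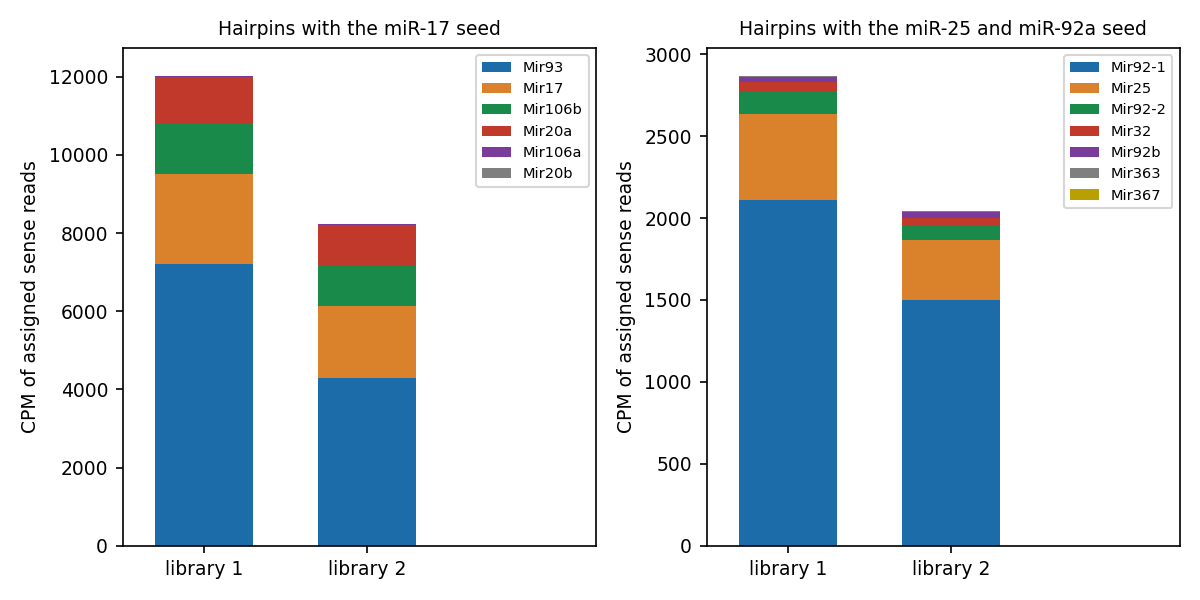
CPM of all hairpins that carry the miR-17 seed (left) and the seed of miR-25 and miR-92a (right), stacked by gene, in each library. Mir93 is the largest part of the counted reads of the miR-17 seed hairpins in both libraries, and Mir92-1 of the others.

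The X-linked mir-106a-363 cluster is the remaining paralog of both clusters, and its 6 hairpins had few counted reads, 357 in library 1 and 198 in library 2. Mir92-2 gave 80.1% and 84.3% of them. Mir18b and Mir19b-2 had 0 reads in both libraries, and Mir363 had 10 and 13. The mir-17-92 cluster exceeded mir-106a-363 31.9-fold in library 1 (28.7 to 35.5) and 42.2-fold in library 2 (36.6 to 48.8), and mir-106b-25 exceeded it 50.6-fold (45.6 to 56.3) and 53.5-fold (46.5 to 61.9). These ratios hold for counted reads only. Reads of the miR-92a and miR-19b arms can go uncounted in mir-106a-363 and mir-17-92, but not in mir-106b-25, which has no such arm. Gene by gene, Mir17 exceeded Mir106a 131-fold (94.2 to 189) and 263-fold (153 to 494). The guide arms of that pair differ by 1 substitution, U10A.

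The libraries were compared gene by gene with an exact two-sided conditional binomial test over the 344 genes with 10 or more counts summed, Benjamini-Hochberg adjusted over all of them. It models counting error only, with each read taken as independent, so its p-values can be too small. It compares 2 libraries, not conditions. Of the 9 genes, 7 were tested, and Mir19a and Mir19b-1 had too few reads. None of the 7 was called by the exact test at 2-fold with an adjusted p under 0.05, against 17.7% of all tested genes, 12.2% higher in library 1 and 5.52% in the other direction. With the scaling factors of edgeR (TMM) or DESeq2, 0 were called too, and over all genes the 42 higher in library 1 and 19 higher in library 2 became 27 and 29. All 7 had lower CPM in library 2, as 218 of the 344 tested genes did. The median log2 ratio of library 2 over library 1 was -0.34 for the 7, against -0.19 over all tested genes. By the adjusted p alone, 6 of the 7 passed as higher in library 1, where 36.3% of all tested genes did, and 0 as higher in library 2, where 17.7% did. With no fold threshold a pass depends on read number, so these shares are not of like genes. All 7 had 100 or more counts summed, as 216 of the 344 tested genes did. With TMM scaling 5 of the 7 were lower in library 2, and these 5 passed as higher in library 1.

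Mir93 differed most, at 1.68-fold higher in library 1, a log2 ratio of -0.75 (exact interval -0.79 to -0.71, adjusted p = 1.31e-312). Mir25 had a log2 ratio of -0.52 (-0.66 to -0.38), Mir92-1 of -0.49 (-0.56 to -0.42), Mir106b of -0.34 (-0.42 to -0.25), Mir17 of -0.33 (-0.39 to -0.26) and Mir20a of -0.16 (-0.25 to -0.07, exact adjusted p = 0.000781). Mir18, at -0.15 (-0.46 to 0.15), did not pass the exact test with an adjusted p of 0.445. The TMM factor of edgeR, which scales libraries on genes of middling ratio, moved the median of all tested genes from -0.19 to 0.00. With it Mir20a stood at 0.03 and Mir18 at 0.04, so the direction of both turned, while Mir93 (-0.56), Mir25 (-0.33), Mir92-1 (-0.30), Mir106b (-0.15) and Mir17 (-0.14) stayed lower in library 2.

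Of the mir-106a-363 genes, 4 were tested and 2 were called, both higher in library 1, a direction in which 12.2% of all tested genes were called. Mir20b had 26 and 5 reads (log2 ratio -2.17) and Mir106a had 35 and 13 (-1.29). Mir92-2 passed the adjusted p at 1.60-fold, and Mir363 did not pass it. The genes of this cluster with the miR-17 seed thus rest on 5 to 35 reads per library.

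**Figure D5:**
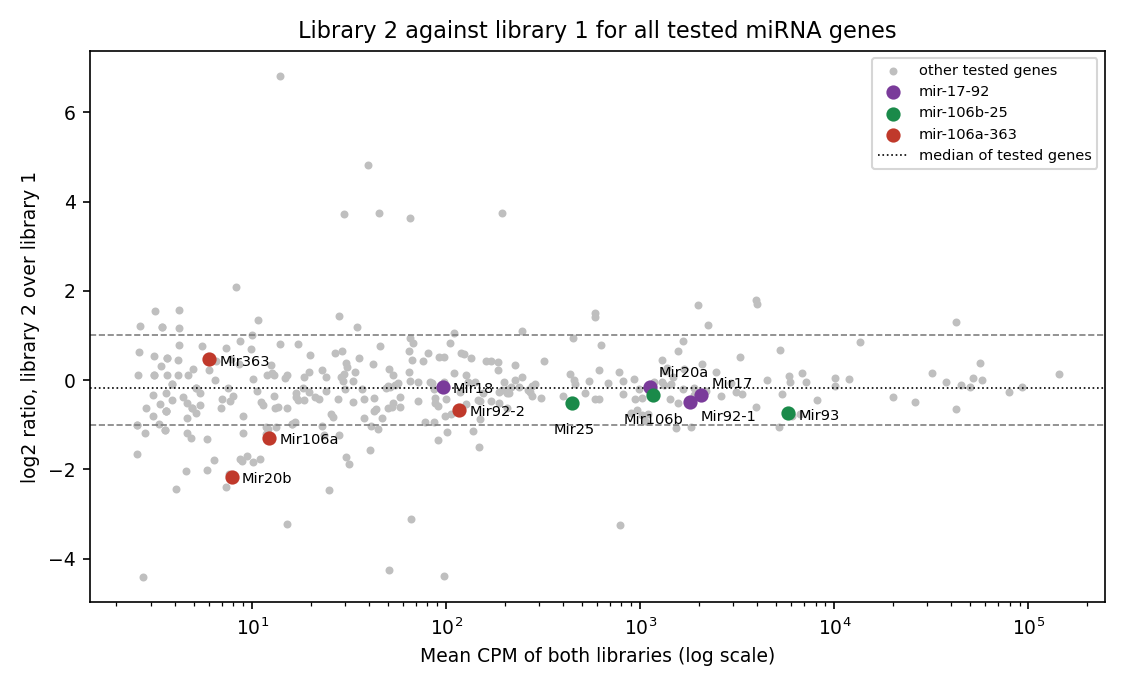
Log2 ratio of library 2 over library 1 against mean CPM (log scale) for the 344 tested genes, with the members of the 3 clusters in colour, dashed lines at 2-fold and a dotted line at the median of -0.19. The 7 tested genes of mir-17-92 and mir-106b-25 lie between -0.75 and -0.15, inside the 2-fold lines, and Mir106a and Mir20b of mir-106a-363 lie below them.

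Markers of cell types were read in the same libraries. All 7 cardiac muscle genes had reads in both libraries, with 0.856% and 0.670% of assigned reads, but they did not move together. Mir208a, the miRNA of the alpha myosin heavy chain gene, stood at 7004 and 3393 CPM, while Mir499, also of a myosin gene, stood at 1336 and 3141 CPM. Of the miR-1 and miR-133a hairpins, which define heart and skeletal muscle, Mir1a-2 had 115 and 102 reads, and Mir1a-1, Mir133a-1 and Mir133a-2 had 2 to 6 per library. All 4 share a 22 nt stretch with another annotated hairpin, so their reads can have several mapping places and go uncounted, and these counts do not give the level of miR-1 or miR-133a in the hearts. The leukocyte list, 5 of 5 with reads, took 0.689% and 0.678%, and the erythroid list, 3 of 3, took 0.245% and 0.197%. The smooth muscle list, 2 of 2, took 3.95% and 3.87%, and the endothelial list took 4.89% and 6.38%, nearly all on Mir126a, with Mir126b at 3 and 0 reads. The summed cardiac muscle and erythroid lists had lower values in library 2, with log2 ratios of -0.35 and -0.32. Both clusters and the median tested gene (log2 ratio -0.19) were lower there too. The smooth muscle and leukocyte lists differed little, at -0.03 and -0.02, and their genes went both ways. Mir145a stood at a log2 ratio of 0.19 and Mir143 at -0.04. Among leukocyte genes Mir150 stood at 0.45 and Mir342 at 0.25, against -0.41 for Mir142, -0.30 for Mir155 and -0.17 for Mir223. The endothelial list had a higher value in library 2. Within the erythroid list Mir451a stood at 1115 and 669 CPM, whereas Mir486 stood at 1193 and 1161 and Mir144 at 143 and 140. The part of the cell make-up of the hearts in the differences between libraries was not tested.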

How the data were processed

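Each library came with 1 deposited table of raw, unnormalized counts per miRNA gene, in 3 columns for both strands, the sense and the antisense strand; the text deposited beside them names mm10 and annotation M21. Aligner and counter were not given in the sources used here. Which column is sense was read from the values. Library totals and tests left out the 4 status rows, which name no gene. All 2202 identifiers matched GENCODE M21. Sequences are from RefSeq, which held mature sequences for 1018 of the symbols.

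The members and lists were chosen with earlier results of these data known. The genes named beyond them are those with a member's seed at a mean of 10 CPM or more, and the 3 nearest in log2(CPM + 0.5) to each cluster's leading gene; Mir6383 and Mir367 were added after their values were seen. A hairpin was called a copy where it shares 22 nt with another annotated hairpin at another place. Log2 ratios had 0.5 added to each count, and genes had to reach 10 counts summed. No quasi-likelihood fit was possible with 1 group, so edgeR 4.0.16 (TMM) and DESeq2 1.42.0 gave scaling factors only. Tests used scipy 1.17.1 and were tried on simulated Poisson counts. Those counts hold only the counting error that the test assumes, so the trial cannot show how it does with other spread between libraries. Alternatives were other columns, denominators, scalings, filters, thresholds and pseudocounts, and each library left out.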

Additional observations from a re-analysis of the deposited data

How the results depend on the processing

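No paired analysis was possible because both libraries belong to 1 group. The order of the 9 genes by mean level was the same under all 6 other scalings of the levels. Apart from division by hairpin length, each multiplied all 9 genes of a library by 1 factor. Such a factor could not change the order within a library. With 1 library left out, mir-17-92 ranged from 4484 to 5692 CPM and mir-106b-25 from 5689 to 9033. With counts of both strands together mir-17-92 stood at 6591 CPM and mir-106b-25 at 9518. Their counts did not change there, and the rise came from smaller library totals. Per 1000000 of all reads mir-17-92 stood at 1892 and mir-106b-25 at 2731. Among members sharing no 22 nt stretch, the log2 ratio of mir-106b-25 over mir-17-92 was 1.13 in place of 0.50. This leaves out Mir92-1 and Mir19b-1, both of mir-17-92, so the ratio had to rise. At 1.5-fold 1 of the 9 genes (Mir93) was called higher in library 1, and with no fold threshold 6. Over all genes, 42 were called higher in library 1 and 19 in library 2; these counts were 27 and 29 with TMM and with DESeq2 scaling, 70 and 35 at 1.5-fold, 125 and 61 with no fold threshold, and 17 and 16 among genes with 100 or more counts. Of the genes called in either direction, the share higher in library 2 went from 31.1% to 51.8% with TMM. The log2 ratio of Mir18 turned to 0.036 with TMM and 0.035 with DESeq2 scaling, and that of Mir20a to 0.031 and 0.030. With 3 or fewer reads per library, Mir19a and Mir19b-1 could not be tested between libraries.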
